A study of Mus musculus with 13 samples.

Results

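A set of 10 genes of complement C1q and of the clearance of dying cells was followed through F4/80+ cells of the mouse fetal liver, namely C1qa, C1qb, C1qc, Mertk, Axl, Timd4, Mfge8, Stab1, Cd5l and Marco. The genes were named by hand by gene symbol, with earlier results of these data known, and all 10 were found in each kind of data, out of 55901 gene symbols over all tables. The tables hold 23337 symbols for EKLF+/+ and EKLF-/- cells, 35454 for the EKLF/GFP sorts and 54227 for the single cells. EKLF (gene symbol Klf1) is the erythroid Krüppel-like transcription factor, and the study asked what it does in the macrophages of erythroblastic islands. All samples were cells selected for F4/80 from livers at E13.5, labelled as strain C57BL/6. The bulk RNA-Seq groups of 3 biological replicates each were EKLF+/+ (wild type), EKLF-/- (null), and the EKLF/GFP+ and EKLF/GFP- sorts. The EKLF/GFP sorts came from mice of wild type genotype that carry pEKLF-GFP, a transgene in which the EKLF promoter drives GFP. A single-cell library was made from 1 wild type sample of pooled littermate embryos. The bulk cells were sorted by flow cytometry. The single cells were selected with magnetic beads, in the presence of a peptide that blocks contact of macrophages with erythroid cells. By the study's flow cytometry most of the bead-selected cells were F4/80+, but not all. The study's resource list places the EKLF-null allele on a 129S4/SvJae background, so the labelled strain and that list differ for the EKLF-/- cells. RNA of EKLF/GFP+ cells was isolated with a Nanoprep kit and that of the other bulk groups with Trizol, so kit and GFP status cannot be told apart. The study gives a lower RNA integrity for EKLF/GFP+ cells than for EKLF+/+ and EKLF-/- cells, and none for EKLF/GFP- cells. The part of RNA integrity in the levels and transcript shares of the sorts was not tested.

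Macrophages in the fetal liver sit at the centre of erythroblastic islands, where they engulf the nuclei that maturing red cells expel. Engulfment of dying cells or expelled nuclei, called efferocytosis when the prey is a dying cell, begins when phosphatidylserine on the prey is bound directly by a receptor or through a bridging protein. Complement C1q is a secreted complex that binds targets, starts the classical complement pathway and also tags dying cells for uptake.

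C1qa, C1qb and C1qc encode the chains of C1q. They lie next to each other on chromosome 4 of GRCm38, all on the minus strand, within 18.7 kb from 136880129 to 136898803. Mertk (chromosome 2, from 128698956 to 128802894) and Axl (chromosome 7, from 25757273 to 25788705) encode receptor tyrosine kinases that bind phosphatidylserine through bridging proteins such as Gas6. Timd4 (chromosome 11, from 46810800 to 46844332) encodes TIM-4, a receptor that binds phosphatidylserine directly. Mfge8 (chromosome 7, from 79133768 to 79149060) encodes a secreted bridge between phosphatidylserine and integrins. Stab1 (chromosome 14, from 31139013 to 31168641) encodes stabilin-1, a scavenger receptor of macrophages and sinusoidal endothelium that also binds phosphatidylserine. Cd5l (chromosome 3, from 87357881 to 87371073) encodes AIM, a protein that macrophages secrete. Marco (chromosome 1, from 120474538 to 120505024) encodes a class A scavenger receptor. Stab1 overlaps the gene Nt5dc2 on the other strand by 112 bases. Mertk overlaps the antisense gene Gm14011 and holds the small RNA gene Gm23172, and the strand setting of the counting is not given in the sources used here.

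The promoters of 5 genes are printed because 4 of the genes were called in a bulk comparison and Marco was the gene most like Cd5l among the 10 in the bulk libraries. Each is the 250 bases before the gene's start from RefSeq on GRCm38.p6, written 5′ to 3′ on the gene's strand. Capitals mark CACCC, the short core of the element that Krüppel-like factors bind, and GAGGAAG, an element of PU.1 type ETS factors, or the same letters on the other strand (GGGTG and CTTCCTC).
Timd4 (chr11:46810549-46810798, strand +): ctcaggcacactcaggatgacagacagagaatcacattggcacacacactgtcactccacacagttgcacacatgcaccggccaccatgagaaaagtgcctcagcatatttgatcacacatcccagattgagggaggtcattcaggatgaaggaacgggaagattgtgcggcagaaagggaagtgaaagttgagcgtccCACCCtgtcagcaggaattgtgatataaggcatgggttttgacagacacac
Cd5l (chr3:87357631-87357880, strand +): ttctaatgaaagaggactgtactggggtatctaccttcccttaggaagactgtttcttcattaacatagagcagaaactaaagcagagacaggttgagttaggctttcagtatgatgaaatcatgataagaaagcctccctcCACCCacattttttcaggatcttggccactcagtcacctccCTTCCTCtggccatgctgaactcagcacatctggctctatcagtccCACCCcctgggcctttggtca
Marco (chr1:120505025-120505274, strand -): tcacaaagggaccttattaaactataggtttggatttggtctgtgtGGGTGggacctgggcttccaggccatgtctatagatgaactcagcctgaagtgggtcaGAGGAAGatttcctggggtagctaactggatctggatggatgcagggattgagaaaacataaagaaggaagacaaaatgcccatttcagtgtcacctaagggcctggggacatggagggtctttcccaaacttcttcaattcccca
Mfge8 (chr7:79149061-79149310, strand -): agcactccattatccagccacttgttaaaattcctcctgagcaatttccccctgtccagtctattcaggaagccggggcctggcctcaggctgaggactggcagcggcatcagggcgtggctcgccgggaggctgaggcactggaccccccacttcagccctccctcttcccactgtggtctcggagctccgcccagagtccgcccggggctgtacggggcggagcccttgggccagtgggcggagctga
Stab1 (chr14:31168642-31168891, strand -): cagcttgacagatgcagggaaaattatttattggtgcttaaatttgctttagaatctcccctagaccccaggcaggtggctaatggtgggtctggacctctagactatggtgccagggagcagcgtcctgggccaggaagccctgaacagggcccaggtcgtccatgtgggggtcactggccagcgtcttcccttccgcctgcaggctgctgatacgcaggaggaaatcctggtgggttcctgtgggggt
A promoter was listed for 9 of the 10 genes (not for C1qa). CACCC was found on either strand in 6 of the 9, namely C1qb, C1qc, Mertk, Timd4, Cd5l and Marco, and in 52.0% of all 32851 listed promoters. Counted back from the gene's start, it lay at -51 to -47 in Timd4, at -108 to -104 and -21 to -17 in Cd5l, and on the other strand at -204 to -200 in Marco. The longer CACACCC, which contains CACCC, was found in 1 of 9 (C1qc) and in 6.93% of all. GAGGAAG was found in 4 of 9 (C1qc, Axl, Cd5l and Marco) against 10.6% of all. TGCTGA, a core site of Maf factors, was found in 4 of 9 (C1qb, Timd4, Stab1 and Cd5l) against 16.1% of all, and AGGTCA, a core site of nuclear receptors, in 2 of 9 (C1qc and Timd4) against 14%. These are matches of letters and not measured binding sites.

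The genotype libraries held 10695514 to 15362161 counts on genes each, and the libraries of the GFP sorts 22723199 to 28736342. Of all reads tallied, 27.3% to 28.9% fell on genes in the EKLF+/+ libraries and 31.1% to 32.8% in the EKLF-/- libraries, without overlap. Levels are given as CPM, which are counts scaled to the library size after TMM normalization. Klf1 stood at 362, 305 and 376 CPM in the EKLF+/+ libraries, against 58.7, 64.2 and 57.1 in those of EKLF-/- cells, and was called lower (log2 fold change -2.53, SE 0.12, adjusted p = 7.22e-06 by edgeR's quasi-likelihood test, Benjamini-Hochberg adjusted). It was higher in EKLF/GFP+ than in EKLF/GFP- cells (log2 fold change 1.35, SE 0.16, adjusted p = 0.000316, same test). Adgre1, which encodes F4/80, was not called in either comparison, with log2 fold changes of 0.12 and 0.21. Summed levels of the macrophage marker list overlapped between groups in both comparisons. Erythroid markers were present in all sorted groups, with a summed level of 14501 to 18830 CPM in EKLF+/+ against 3722 to 5415 in EKLF-/-, and 13690 to 17183 in EKLF/GFP+ against 7127 to 9738 in EKLF/GFP-. The erythroid list holds Klf1, and Hba-a1 was at 0 in all EKLF+/+ and EKLF-/- libraries. In bulk libraries, fewer cells of one type and less RNA per cell cannot be told apart.

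The single cells show where the 10 genes are used. After leaving out barcodes with under 200 detected genes, 3093 of 3096 cells remained, with a median of 18605 counts per cell, and they fell into 15 clusters that were built without the 10 genes. Clusters 0, 1 and 2, with 653, 402 and 383 cells, were called macrophage-like from a marker list that holds none of the 10 genes. Together they are 1438 cells. The top genes of cluster 2 were led by Vcam1, the island adhesion molecule, and those of cluster 1 by Fcrls, Cx3cr1 and Dab2. The cells come from 1 library, so values are summed counts as CPM with exact Poisson intervals or shares of cells with exact binomial intervals, at 95%. These intervals cover counting error only and no test between clusters is given.

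Of the 10 genes, 8 had their highest level among the named classes in the macrophage-like class, taken over all its cells. In this class C1qb had 2018 CPM (2001 to 2036), C1qa 1492 (1477 to 1507) and C1qc 1463 (1448 to 1478). Cd5l followed with 905 CPM (893 to 916) and Marco with 824 (813 to 835). The phosphatidylserine receptors came lower, with Axl at 318 CPM (311 to 325), Timd4 at 252 (246 to 258) and Mertk at 155 (150 to 160). Stab1 had 147 CPM (142 to 151) and Mfge8 only 3.36 (2.69 to 4.15). In this order the intervals of C1qa and C1qc overlap, as do those of Mertk and Stab1, and the other neighbours are apart. The macrophage-like cells held 84.2% to 87.2% of all molecules of C1qa, C1qb, C1qc, Mertk, Axl, Timd4, Cd5l and Marco.

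Stab1 and Mfge8 were the exceptions. Stab1 reached 561 CPM (521 to 604) in the 83 endothelial-like cells of cluster 11, whose top genes include Lyve1, Kdr and Oit3. Those few cells held 14.1% of Stab1 molecules, while macrophage-like cells held 73.7%. Mfge8 was highest in the same endothelial-like cells, at 101 CPM (84.1 to 120), and in the 69 hepatoblast-like cells of cluster 12, at 96.2 CPM (83.3 to 110). Their intervals overlap, so the order of these 2 cell classes is not set. Hepatoblast-like cells held 34.0% of Mfge8 molecules, endothelial-like cells 22.2% and macrophage-like cells 14.9%. Gas6, another bridging protein and named here after its values were seen, had 73.5 CPM in macrophage-like cluster 1, 25.5 in endothelial-like and 1.93 in hepatoblast-like cells.

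**Figure D1:**
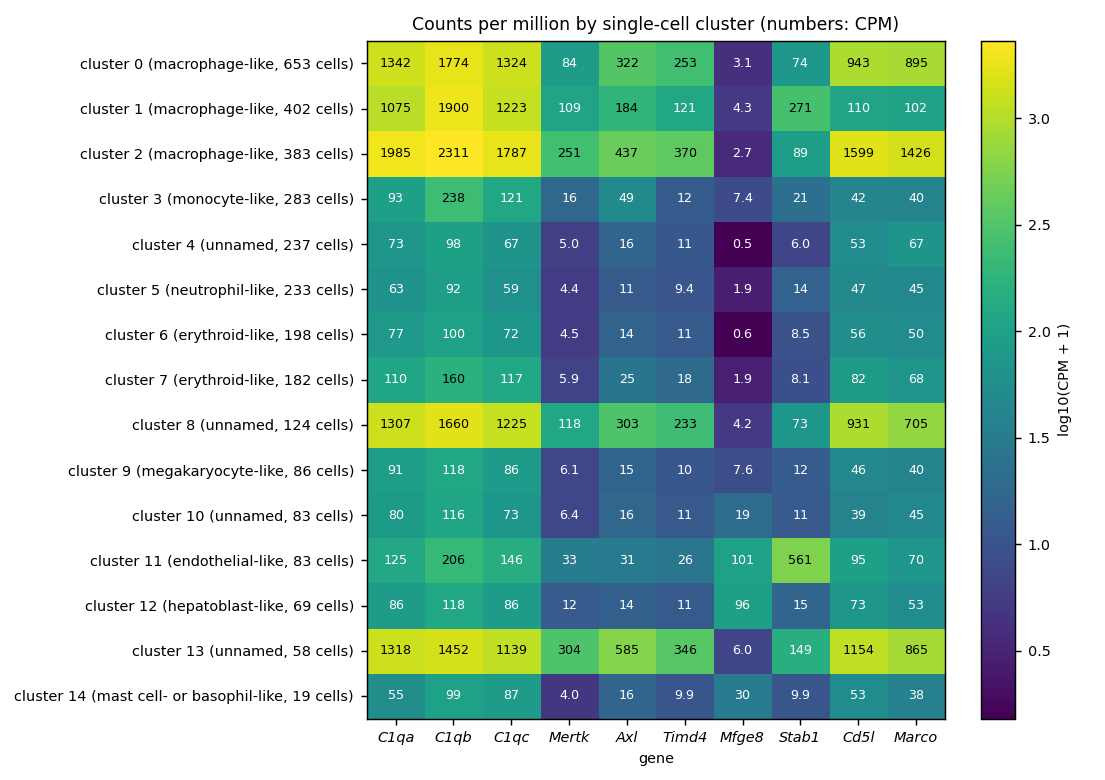
Summed single-cell level of each gene (columns) in each cluster of cells selected for F4/80 (rows), from 1 library of 3093 cells. The colour is log10 of CPM plus 1 and the printed numbers are CPM. C1qa, C1qb, C1qc, Mertk, Axl and Timd4 are high in macrophage-like clusters 0, 1 and 2 and Cd5l and Marco in clusters 0 and 2, while Stab1 is highest in endothelial-like cluster 11 and Mfge8 in clusters 11 and 12.

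Within the macrophage-like cells, the genes fell along different lines. The C1q chains were high in all 3 clusters. C1qa had 1985 CPM (1957 to 2013) in cluster 2, 1342 (1316 to 1369) in cluster 0 and 1075 (1053 to 1097) in cluster 1, a range of less than 2-fold. Cd5l, by contrast, had 1599 CPM (1574 to 1624) in cluster 2, 943 (921 to 966) in cluster 0 and 110 (103 to 117) in cluster 1. Marco followed the same order, with 1426 (1403 to 1450), 895 (874 to 917) and 102 (95.9 to 109) CPM. These are the widest gaps among the 10 genes between macrophage-like clusters. Timd4 had 370 CPM (358 to 382) in cluster 2, 253 (242 to 265) in cluster 0 and 121 (114 to 129) in cluster 1. Axl had 437, 322 and 184 CPM in the same order. Both receptors thus kept the order of Cd5l with smaller gaps. Mertk was again highest in cluster 2, at 251 CPM (241 to 261), but lowest in cluster 0, at 84.3 (77.8 to 91.2), with 109 (102 to 116) in cluster 1. Stab1 ran the other way, with 271 CPM (260 to 282) in cluster 1 against 88.6 (82.8 to 94.7) in cluster 2 and 73.7 (67.6 to 80.2) in cluster 0. Thus the cells of cluster 1 held C1q with Stab1 and little Cd5l or Marco, and those of cluster 2 held C1q with Cd5l, Marco, Timd4 and Mertk.

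Depth differs among these clusters, with a median of 9699 counts per cell in cluster 0, 20348 in cluster 1 and 22559 in cluster 2. Cells were therefore thinned to 5000 counts each before shares of cells were compared, which left out 4 of the 1438 macrophage-like cells. C1qa was then found in 100% of cells of cluster 2, 94.8% of cluster 0 and 92.0% of cluster 1. Without thinning the shares were 100%, 97.7% and 98.5%. Cd5l was found in 87.7% (84.0 to 90.8) of thinned cells of cluster 2, 70.4% (66.8 to 73.9) of cluster 0 and 30.4% (25.9 to 35.2) of cluster 1, and in 96.3%, 82.1% and 67.2% without thinning. Stab1 was found in 56.5% (51.5 to 61.5) of thinned cells of cluster 1 against 33.9% (29.2 to 38.9) of cluster 2 and 24.0% (20.8 to 27.5) of cluster 0, and in 82.3%, 76.8% and 43.8% without thinning. The order of the clusters by share was the same as by CPM for Cd5l and Stab1.

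A lower level of the C1q transcripts was found in cells of every other named class. Erythroid-like cells (380 in clusters 6 and 7) had 89.5 CPM of C1qa, 123 of C1qb and 89.2 of C1qc, and C1qa was found in 33.3% of the thinned cells (28.6 to 38.3). In neutrophil-like cells C1qa was found in 28.8% (23.0 to 35.2) and in monocyte-like cells in 29.3% (24.0 to 35.0). Red cell precursors are not known to make C1q, so shares at or below theirs are not read as expression. Free RNA in the droplets was not measured, and its part in these counts was not tested. Median depths before thinning were 25119 and 17642 counts in the erythroid-like clusters, 23081 in neutrophil-like and 23609 in monocyte-like cells. C1qb was more widespread in monocyte-like cells, in 51.8% of thinned cells (45.8 to 57.8) against 39.2% (34.2 to 44.3) of erythroid-like cells. It was also found in 56.1% of endothelial-like cells (44.7 to 67.0), where C1qa was found in 40.2% (29.6 to 51.7). Cd5l was found in 23.0% of erythroid-like cells (18.9 to 27.6) and 35.4% of endothelial-like cells, and the 30.4% of macrophage-like cluster 1 lies between these.

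The counts of each gene were also set against the summed C1q counts of the same cells. In erythroid-like cells Cd5l stood at 21.9% of C1q counts, Marco at 19.0% and Axl at 6.11%. In macrophage-like clusters 0 and 2 Cd5l stood at 21.2% and 26.3%. In macrophage-like cluster 1, Cd5l stood at 2.62% and Marco at 2.44%, and in monocyte-like cells at 9.27% and 8.83%. Cluster 1 had less Cd5l per C1q than the erythroid-like cells. In endothelial-like cells Stab1 stood at 117.7% of C1q counts, against 1.46% to 6.46% in the macrophage-like clusters and 2.76% in erythroid-like cells. Mfge8 stood at 33.1% in hepatoblast-like and 21.1% in endothelial-like cells, against 0.35% in erythroid-like cells.

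**Figure D2:**
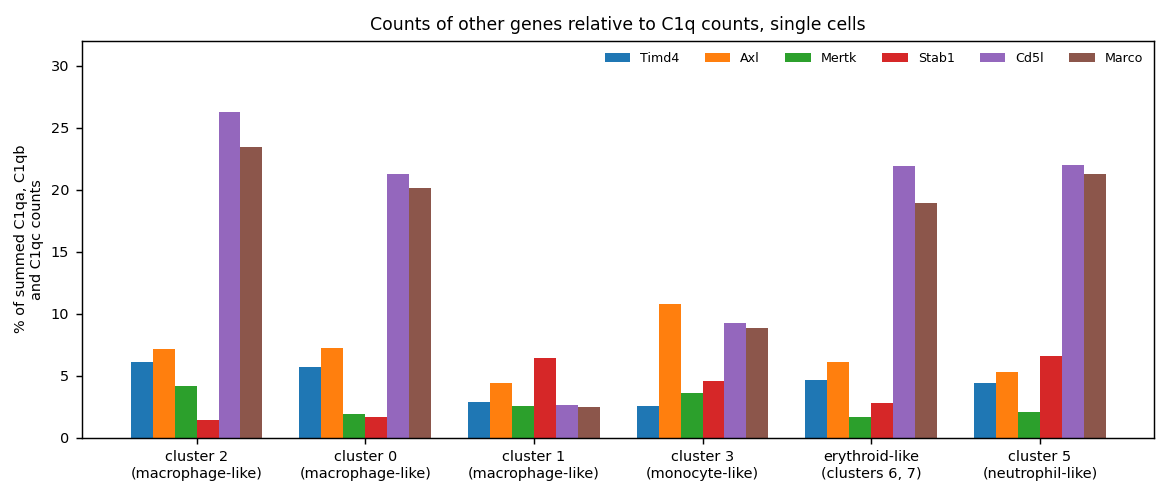
Counts of Timd4, Axl, Mertk, Stab1, Cd5l and Marco as a percent of the summed C1qa, C1qb and C1qc counts of the same cells (bars), in 6 groups of cells of the single-cell library. Cd5l and Marco stand at 19.0% to 26.3% in macrophage-like clusters 0 and 2 and in erythroid-like cells and at 2.62% and 2.44% in macrophage-like cluster 1.

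The C1q chains kept their own proportions in most cells. C1qa, C1qb and C1qc made up 30%, 40.6% and 29.4% of C1q counts in macrophage-like cells and 29.7%, 40.7% and 29.6% in erythroid-like cells. Macrophage-like cluster 1 had 25.6%, 45.3% and 29.1%, and monocyte-like cells had 20.5%, 52.8% and 26.7%, the highest C1qb share of any cluster.

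Unnamed clusters also held these genes. Cluster 8 (124 cells) had macrophage markers beside leading genes of late erythroid cells such as Tmcc2, Ypel4 and Xpo7 and stayed unnamed. It had 1307 CPM of C1qa, 931 of Cd5l and 705 of Marco. Cluster 13 (58 cells), with a median of 5278 counts per cell and 17.0% mitochondrial counts, had 1318 CPM of C1qa and 585 of Axl. Scrublet called no doublet among the cells kept, and doublets of a macrophage with a red cell precursor were not removed.

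Cells with and without a Klf1 count were compared next, since the study asks which F4/80+ cells use EKLF. Klf1 had 2.28 CPM (1.74 to 2.94) in macrophage-like cells, 2.02 (1.04 to 3.53) in neutrophil-like cells and 115 in erythroid-like cells. The intervals of the macrophage-like and neutrophil-like cells overlapped, so the macrophage-like level is not read as expression or as its absence. The erythroid-like clusters did not hold most of the Klf1 counts. Unnamed cluster 4 (237 cells) had 144 CPM (137 to 151) from 1654 counts, against 983 counts in the erythroid-like clusters, and megakaryocyte-like cells had 41.6 CPM. Cluster 4 was low in the macrophage genes, with 72.7 CPM of C1qa, 52.7 of Cd5l and 66.6 of Marco against 89.5, 65.9 and 57.1 in erythroid-like cells, and C1qa was found in 24.1% of its thinned cells. Epor, the erythropoietin receptor, had 81.7 CPM in cluster 4, 49.3 in erythroid-like and 9.43 in macrophage-like cells. Hbb-bs, a beta-globin gene, had 6002, 179599 and 2573 CPM in the same order. Both genes were named here after their values were seen. Unnamed clusters 8 and 13, which held macrophage markers, had 11.1 (6.33 to 18.0) and 20.9 (8.39 to 43.0) CPM of Klf1 from 16 and 7 counts, above the macrophage-like level. Of macrophage-like cells, 3.82% had a Klf1 count before thinning, against 68.2% of erythroid-like cells. After thinning to 5000 counts, the 55 macrophage-like cells with a Klf1 count and the 1379 without had C1qa in 100% and 95.2% of cells. Cd5l was found in 76.4% (63.0 to 86.8) and 63.5% (60.8 to 66.0), and Marco in 67.3% (53.3 to 79.3) and 62.1% (59.5 to 64.6). Timd4 was found in 63.6% and 59.5%, Axl in 69.1% and 69.4%, Mertk in 47.3% and 43.7%, and Stab1 in 32.7% and 35.8%. The intervals overlapped for all 6. Cells with a Klf1 count were deeper, with a median of 22588 counts against 14337, so that a Klf1 count is itself more likely to be found in them. In erythroid-like cells C1qa was found in 34.0% of the 259 cells with a Klf1 count and 31.9% of the 119 without.

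In the bulk libraries, levels of different genes were compared per kilobase of exon, over all exons annotated for a gene. In EKLF+/+ cells the order was C1qb (17.8 ± 0.49 CPM per kb, SD, n = 3), C1qa (15.8 ± 6.20), C1qc (10.5 ± 2.65), Cd5l (10.1 ± 2.71), Marco (9.78 ± 3.97), Stab1 (7.11 ± 0.92), Axl (5.53 ± 0.93), Timd4 (3.07 ± 0.98), Mfge8 (2.85 ± 0.59) and Mertk (1.42 ± 0.25). Neighbours in this order overlapped between replicates except Axl and Timd4, and Mfge8 and Mertk. In EKLF-/- cells C1qb (25.6 ± 17.4) again came first, and Timd4 (0.82 ± 0.23) came last. The order rests on the length used. Over the transcript with the most reads, a length chosen after seeing the data, C1qc (16.9 ± 4.25) stood above C1qa and Mfge8 (6.66 ± 1.37) above Timd4 in EKLF+/+ cells. In EKLF/GFP- cells C1qb (23.4 ± 5.67) was followed by Marco (12.4 ± 6.24) and C1qa (10.00 ± 2.99), and Mfge8 (0.70 ± 0.10) came last. In EKLF/GFP+ cells Marco (29.1 ± 15.4) and C1qb (25.5 ± 10.1) came first, with wide overlap, and Mfge8 (0.33 ± 0.06) last. The EKLF+/+ and EKLF-/- reads were aligned and counted in another way than those of the EKLF/GFP libraries, so levels were not compared between these experiments.

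**Figure D3:**
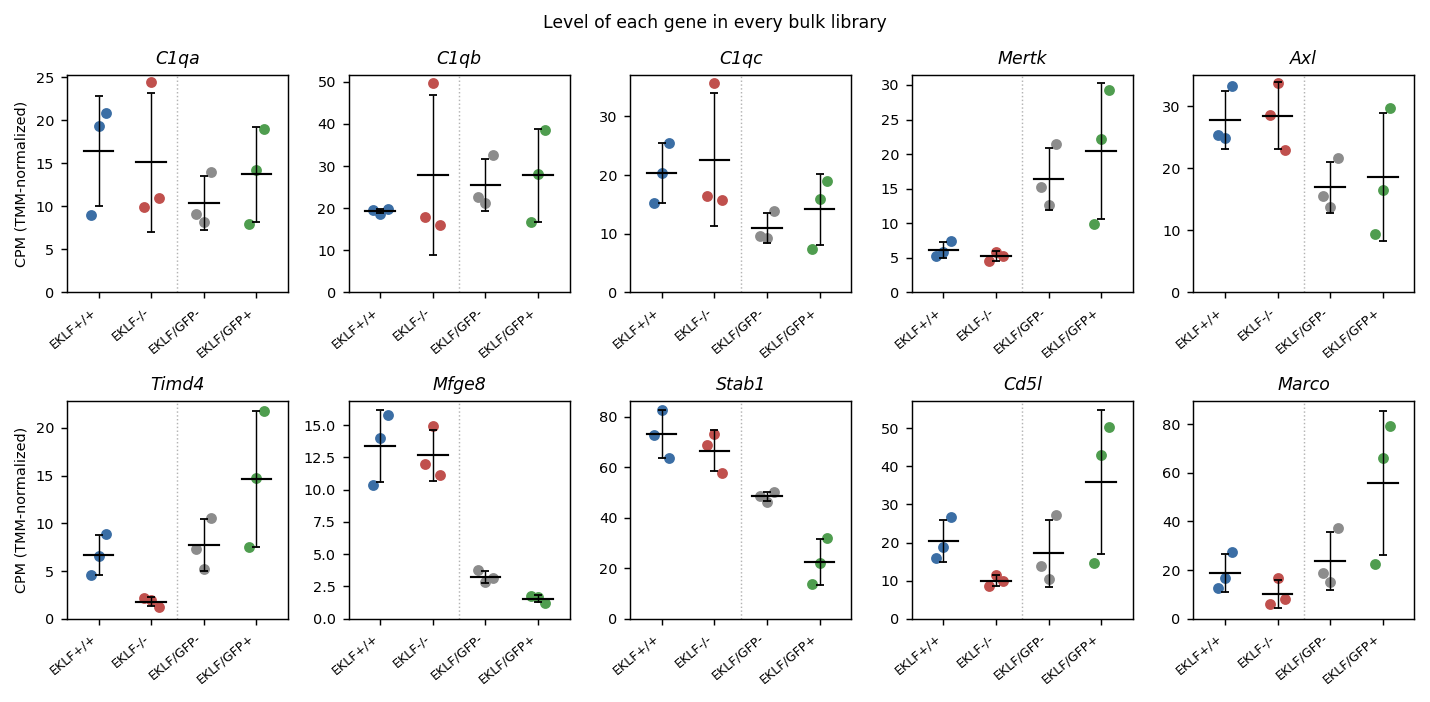
Level of each gene (CPM, linear axis from 0) in each of the 12 bulk libraries, with a point per library, a line at the group mean and a bar of 1 SD. Timd4 and Cd5l lie lower in all 3 EKLF-/- libraries than in all 3 EKLF+/+ libraries, and Mfge8 and Stab1 lie lower in all 3 EKLF/GFP+ than in all 3 EKLF/GFP- libraries.

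In EKLF-/- cells 2 of the 10 genes, Timd4 and Cd5l, were lower than in EKLF+/+ cells, none was higher and 8 were not called. Over all 12753 genes tested, 20.3% were called, 10.6% as lower and 9.72% as higher, so 2 of 10 is near the background. Groups did not overlap for the same 2 of 10 genes, against 46.3% of all genes. The median log2 fold change of the 10 genes was -0.13, with 7 negative and 3 positive, against 0.02 over all genes. No gene of the 10 was higher at an unadjusted p under 0.05 by edgeR, and DESeq2 called 0 higher. All 10 passed the filter on low counts in both comparisons. The p-values measure the spread between these biological replicates.

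Timd4, the phosphatidylserine receptor TIM-4, had 4.62, 6.53 and 8.88 CPM in replicates 1 to 3 of EKLF+/+ and 2.15, 1.99 and 1.23 in those of EKLF-/-. The groups did not overlap and the highest EKLF-/- library was under the lowest EKLF+/+ library. The level fell 3.71-fold (log2 fold change -1.89, 95% interval -2.60 to -1.18, adjusted p = 0.0056 by edgeR's quasi-likelihood test, Benjamini-Hochberg adjusted). These levels rest on 50 to 107 reads per EKLF+/+ library and 16 to 31 per EKLF-/- library. The call was kept under all 13 alternatives, and with any 1 library left out the log2 fold change stayed between -2.10 and -1.66.

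Cd5l, the secreted protein AIM, had 16.0, 18.8 and 26.6 CPM in EKLF+/+ and 8.69, 11.4 and 9.94 in EKLF-/- replicates 1 to 3. Again all EKLF-/- libraries were under all EKLF+/+ libraries. The level fell 2.05-fold (log2 fold change -1.03, 95% interval -1.52 to -0.55, adjusted p = 0.0136, same test). Without EKLF-/- replicate 3 the call was lost, at an unmoved log2 fold change of -1.03 (adjusted p = 0.0532).

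Marco, whose profile in single cells was like that of Cd5l, had 12.5, 16.7 and 27.3 CPM in EKLF+/+ and 6.05, 16.6 and 8.02 in EKLF-/- replicates 1 to 3. The groups overlapped, through EKLF-/- replicate 2. Its log2 fold change was -0.89 (95% interval -1.79 to 0.02, adjusted p = 0.137), and without EKLF-/- replicate 2 it was -1.44 (adjusted p = 0.0092, same test).

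C1q chains were not called. C1qa had 9.06, 19.4 and 20.9 CPM in EKLF+/+ and 9.94, 24.5 and 10.9 in EKLF-/- replicates 1 to 3. C1qb had 19.5, 18.7 and 19.7 in EKLF+/+ and 17.9, 49.7 and 16.0 in EKLF-/-, and C1qc had 15.2, 20.3 and 25.4 against 16.4, 35.7 and 15.8. EKLF-/- replicate 2 was the highest of all 6 libraries for each chain, and the groups overlapped. Log2 fold changes were -0.13 for C1qa (95% interval -1.04 to 0.78), 0.53 for C1qb (-0.36 to 1.41) and 0.15 for C1qc (-0.59 to 0.90), and they were -0.68, -0.20 and -0.35 without EKLF-/- replicate 2, none of them called.

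The other clearance genes had narrower intervals. Mertk had 5.27, 5.80 and 7.38 CPM in EKLF+/+ and 4.52, 5.89 and 5.32 in EKLF-/- replicates 1 to 3, a log2 fold change of -0.23 (95% interval -0.70 to 0.24). Axl had 25.3, 24.9 and 33.2 against 28.6, 33.7 and 23.0 CPM (0.03, interval -0.38 to 0.44). Stab1 had 72.7, 82.8 and 63.8 against 68.8, 73.2 and 57.6 CPM (-0.14, interval -0.45 to 0.17). Mfge8 ranged from 10.3 to 15.8 CPM in EKLF+/+ and from 11.1 to 14.9 in EKLF-/- (-0.08, interval -0.53 to 0.37). All 4 overlapped between genotypes and none was called, and a change of 2-fold lay outside each of these intervals.

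Markers of several cell types moved with genotype. The macrophage list had 2 of 12 tested markers lower and none higher, with summed levels of 988 to 1183 CPM in EKLF+/+ and 852 to 1128 in EKLF-/-. Of 9 endothelial markers 6 were lower, with sums of 288 to 326 CPM in EKLF+/+ and 200 to 212 in EKLF-/-, and of 9 erythroid markers 7 were lower. Progenitor markers were lower for 4 of 5 and mesenchymal markers for 4 of 7. Granulocyte progenitor markers were higher for 4 of 5. Monocyte markers summed to 667 to 1060 CPM in EKLF-/- against 527 to 654 in EKLF+/+, with 1 of 8 called higher. Neutrophil markers summed to 2886 to 5175 CPM against 1693 to 2680, with 3 of 8 higher and 1 lower. When libraries were scaled to the macrophage markers in place of the library size, the median of all genes moved to 0.21, Timd4 and Cd5l were still called lower, and C1qa, Mfge8 and Stab1 turned to small positive values. The part of the other lists in these results was not tested.

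In the EKLF/GFP sorts, Mfge8 and Stab1 were lower in EKLF/GFP+ than in EKLF/GFP- cells and none of the 10 genes was called higher. Over all 14248 genes tested, 44.7% were called, 25.8% as lower and 18.9% as higher, so the 2 of 10 called lower are near the background. No gene called higher stands against 18.9% of all genes, by edgeR's test. At an unadjusted p under 0.05, 2 genes, Timd4 and Marco, were higher, and DESeq2 called 1, Timd4. Groups did not overlap for the same 2 genes, Mfge8 and Stab1, against 55.7% of all genes. The median log2 fold change of the 10 genes was 0.34, with 8 positive, against -0.01 over all genes.

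Stab1 had 13.7, 22 and 32 CPM in EKLF/GFP+ replicates 1 to 3 and 48.8, 46.4 and 50.04 in EKLF/GFP- replicates 1 to 3. All EKLF/GFP+ libraries were lower, with a wider spread than the EKLF/GFP- libraries. The level was 2.14-fold lower in EKLF/GFP+ cells (log2 fold change -1.10, 95% interval -1.69 to -0.51, adjusted p = 0.0090 by edgeR's quasi-likelihood test, Benjamini-Hochberg adjusted). With limma on the authors' normalized values it missed the threshold, at an adjusted p of 0.053 with a pseudocount of 1 and 0.051 with 10.

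Mfge8 had 1.74, 1.70 and 1.23 CPM in EKLF/GFP+ and 3.77, 2.85 and 3.18 in EKLF/GFP- replicates 1 to 3, from 31 to 105 reads per library. The groups did not overlap. The level was 2.09-fold lower in EKLF/GFP+ cells (log2 fold change -1.07, 95% interval -1.58 to -0.55, adjusted p = 0.0052, same test), and it was called under all 15 alternatives. In single cells Stab1 was highest in the endothelial-like class and Mfge8 in the endothelial-like and hepatoblast-like classes. Endothelial-like cells held only 14.1% of Stab1 molecules, however, and macrophage-like cells held 73.7%. Among the macrophage-like clusters Stab1 was highest in cluster 1, at 271 CPM. The sum of 9 endothelial markers was 93.4 to 125 CPM in EKLF/GFP+ and 238 to 273 in EKLF/GFP-, with 7 of 9 called lower. Hepatoblast markers summed to 629 to 1458 CPM in EKLF/GFP+ and 918 to 1083 in EKLF/GFP-, with 1 of 8 lower. The part of endothelial-like, macrophage-like and hepatoblast-like cells in the lower Stab1 and Mfge8 was not tested.

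The macrophage genes Timd4, Cd5l and Marco had positive log2 fold changes that missed the threshold. Timd4 had 7.47, 14.8 and 21.8 CPM in EKLF/GFP+ and 7.30, 5.24 and 10.6 in EKLF/GFP- replicates 1 to 3 (0.93, 95% interval 0.03 to 1.83, adjusted p = 0.089, same test). Cd5l had 14.6, 42.9 and 50.3 CPM against 13.8, 10.4 and 27.2 (1.07, interval -0.05 to 2.19, adjusted p = 0.109). Marco had 22.6, 66.0 and 79.3 CPM against 18.9, 15.0 and 37.5 (1.24, interval 0.12 to 2.35, adjusted p = 0.070). EKLF/GFP+ replicate 1 was the lowest of its group for all 3, and it was within the range of the EKLF/GFP- libraries. Without EKLF/GFP+ replicate 1 all 3 were called higher, with log2 fold changes of 1.28, 1.48 and 1.64, and so was C1qc at 0.71 (adjusted p = 0.0118, 0.0140, 0.0082 and 0.0268 by the same test). Without EKLF/GFP- replicate 3, Cd5l and Marco were called, at 1.56 and 1.71. The genotype and reporter comparisons share no libraries.

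EKLF/GFP+ replicate 1 was also the lowest of its group for the C1q chains and the receptor kinases. C1qa had 7.98, 14.2 and 19.0 CPM in EKLF/GFP+ and 9.09, 8.16 and 14 in EKLF/GFP- replicates 1 to 3 (log2 fold change 0.40), and C1qc had 7.47, 15.9 and 19.0 against 9.56, 9.33 and 13.9 (0.37). C1qb had 16.6, 28 and 38.7 CPM against 22.7, 21.2 and 32.6 (0.12). Mertk had 9.94, 22.1 and 29.3 against 15.2, 12.6 and 21.4 CPM (0.32), and Axl had 9.43, 16.5 and 29.8 against 15.5, 13.7 and 21.6 (0.13). All 5 overlapped between the sorts and none was called, and the interval of each holds 0. Adgre1 had 36.6, 82.5 and 104 CPM in EKLF/GFP+ and 60.3, 48.8 and 84.5 in EKLF/GFP-, so the same replicate was lowest for F4/80 itself. Macrophage markers summed to 707 to 1317 CPM in EKLF/GFP+ and 723 to 936 in EKLF/GFP-, with 3 of 12 lower and 3 higher, and the part of macrophage content in these spreads was not tested. All 12 erythroid markers were higher, and all 8 monocyte and all 8 neutrophil markers were lower, in EKLF/GFP+ cells. Scaled to the macrophage markers, the median of all genes moved to -0.27, and C1qb, C1qc, Mertk and Axl turned negative, while Marco was called higher at 0.86 (adjusted p = 0.0475, same test).

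**Figure D4:**
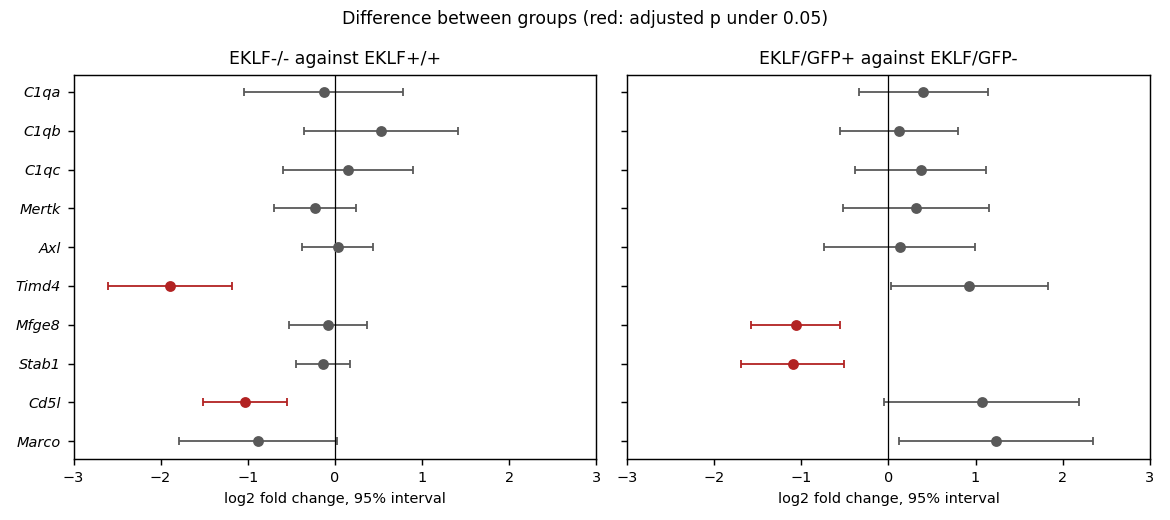
Log2 fold change of each gene with its 95% interval in EKLF-/- against EKLF+/+ and in EKLF/GFP+ against EKLF/GFP- cells (3 libraries per group, edgeR). Points are estimates and bars are intervals, and red points are called at an adjusted p under 0.05: Timd4 and Cd5l in the first comparison and Stab1 and Mfge8 in the second, all lower.

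Salmon's transcript estimates for the EKLF/GFP libraries allowed a look at isoforms and at the C1q chains. As a percent of the summed C1q TPM, C1qa made up 26.6 ± 0.17 in EKLF/GFP+ and 23.7 ± 1.05 in EKLF/GFP- cells (SD, n = 3), and C1qb 50.9 ± 1.75 and 55.3 ± 0.60. The groups did not overlap for either chain, and both had the smallest p that an exact permutation test of 3 against 3 allows, 0.1 (adjusted p = 0.15). C1qc made up 22.5 ± 1.92 and 20.9 ± 0.57 (exact p = 0.2). In the EKLF+/+ libraries the share of C1qa, from CPM per kb, ranged from 25.3% to 40.2%, and in EKLF-/- from 26.8% to 31.5%. With the length of the transcript with the most reads, these ranges were 22.2% to 35.3% and 23.8% to 27.4%.

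No transcript's share of its gene differed past the threshold, which this design cannot reach (13 transcripts tested, smallest adjusted p = 0.433 by exact permutation test). Marco-201, the full-length coding transcript of 1925 bases, made up 54.6 ± 3.77% of Marco TPM in EKLF/GFP+ and 45.5 ± 4.60% in EKLF/GFP- cells (SD, n = 3), against Marco-202 of 370 bases. By reads Marco-201 took 93.3% to 94.7% of Marco in EKLF/GFP+ and 90.3% to 93.1% in EKLF/GFP-, so the gap in the means fell from 9.04 to 2.34 percentage points. The gap of Axl-202, of 3899 bases, grew instead. It took 51.8% to 54.3% of Axl reads in EKLF/GFP+ and 32.4% to 48.5% in EKLF/GFP-, a gap of 12.4 percentage points by reads against 2.31 by TPM. The lower Stab1 level was seen in its long transcript Stab1-201, with 338, 486 and 720 reads in EKLF/GFP+ and 1240, 1208 and 1074 in EKLF/GFP- replicates 1 to 3. The short Stab1-202 of 242 bases took 77.2 ± 5.74% of Stab1 TPM in EKLF/GFP+ cells but only 1.53% to 2.52% of Stab1 reads, so Stab1 is better followed by reads than by summed TPM.

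Beyond the 10 genes, lists of pathway genes were counted in the same fits, and every gene named as an example was called by edgeR's quasi-likelihood test, Benjamini-Hochberg adjusted. In EKLF-/- against EKLF+/+ cells, of 29 complement genes tested 4 were lower and 3 higher, with a median log2 fold change of 0.02, as over all genes. C3, the central complement protein, rose from 169 ± 30.2 to 264 ± 16.7 CPM (SD, n = 3), a call that was lost without EKLF+/+ replicate 1 or 3 or EKLF-/- replicate 3, at log2 fold changes of 0.54 to 0.66. C4a fell from 3.44 ± 0.38 to 1.10 ± 0.42 CPM. Of 39 other efferocytosis genes 6 were lower and 4 higher. Stab2, a relative of Stab1, fell from 48.8 ± 10.6 to 18.6 ± 2.71 CPM. In single cells Stab2 had 725 CPM in endothelial-like cells, from 937 counts, and 44.7 in macrophage-like cells, from 1157 counts. Endothelial markers were lower in the same EKLF-/- libraries for 6 of 9, and their part in the Stab2 value was not tested. Trem2, a lipid receptor of macrophages, rose from 2.34 ± 0.16 to 6.36 ± 0.43. In single cells Trem2 had 132 CPM in macrophage-like, 95.4 in monocyte-like, 9.93 in neutrophil-like and 10.1 in erythroid-like cells. C3 had 544 CPM in hepatoblast-like, 276 in neutrophil-like, 59.4 in monocyte-like and 8.27 in macrophage-like cells. Summed monocyte and neutrophil markers were higher in the same EKLF-/- libraries, and of 8 hepatoblast markers 0 were called. The part of these cell types in the C3 and Trem2 values was not tested. Of 18 genes on the scavenger receptor list 4 were lower and 2 higher. The list also holds Tfrc, the transferrin receptor of red cell precursors, which takes up iron and is not a scavenger receptor. Tfrc is among the 4 and fell from 1816 ± 265 to 380 ± 106 CPM. Of 24 macrophage regulators 3 were lower and 5 higher, and Klf1 itself is one of the 3. Rxra, a nuclear receptor, fell from 42.2 ± 3.06 to 25.8 ± 2.82 CPM. Id3, an inhibitor of helix-loop-helix factors, and Tfec, a relative of Mitf, rose by 0.94 and 0.90 on the log2 scale. These counts are read against the 10.6% of all genes called lower and 9.72% called higher.

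In EKLF/GFP+ against EKLF/GFP- cells, complement had 9 of 29 genes lower and 6 higher, with a median log2 fold change of -0.15. Over all genes 25.8% were called lower and 18.9% higher, with a median of -0.01, and the lists are read against these. Cd93, once named a C1q receptor, was at 3.22 ± 0.21 CPM in EKLF/GFP+ and 34.2 ± 3.15 in EKLF/GFP- cells (SD, n = 3), and Cd59a, which blocks the membrane attack complex, was higher at 43.9 ± 5.85 against 16.8 ± 1.24. Of 39 other efferocytosis genes 21 were lower and 3 higher, with a median of -0.76. Of 16 genes on the scavenger receptor list 8 were lower and 1 higher, with a median of -0.77, and the 1 was the transferrin receptor Tfrc. Elmo1, part of the engulfment machinery, was at 29.8 ± 5.70 against 176 ± 14.9 CPM, and Clec7a, a receptor for fungal glucans, at 7.11 ± 2.58 against 33.4 ± 3.16. Of 23 macrophage regulators 13 were lower and 4 higher, Klf1 itself among the 4, with Klf4 at 0.27 ± 0.02 against 6.09 ± 0.47 and Irf8, a factor of monocytes, at 3.38 ± 1.42 against 40.3 ± 7.70. Monocyte markers were lower in the same cells, at 107 to 139 against 852 to 958 CPM in all, and their part in these counts was not tested.

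Genes whose levels most resembled the 10 were found over the 12 bulk libraries, by Pearson's correlation of log2 CPM centred within each experiment, among 11659 genes. The points share libraries and group differences, so the values are descriptions. The mean of the C1q chains was most like Lgmn, a lysosomal protease (r = 0.94), Il18 (0.92), Nr1h3, the oxysterol receptor LXRα (0.89), Spic, a factor of red pulp macrophages (0.89), and Cmklr1 (0.88). C1qa and C1qc were correlated at 0.94, C1qb and C1qc at 0.89, and C1qa and C1qb at 0.75. Timd4 was most like Tmem26 (0.97), Gfra2 (0.96) and Abcc3 (0.96), and Cd5l like Epb41l3 (0.95), Marco (0.95) and Mettl7a1 (0.95). Of these, Tmem26, Gfra2, Abcc3 and Epb41l3 were among the 10 leading genes of single-cell cluster 2. Stab1 was most like Cds1, Susd3 and Dab2 (each 0.97), and Dab2 was among the leading genes of cluster 1. Mertk was most like P2ry13, Lpl and Adgre1 (0.95, 0.91 and 0.91), Axl like Cadm1, Lpl and Adgre1 (0.93, 0.92 and 0.91), Marco like Cd5l, Fcna and Ctsb (0.95, 0.95 and 0.94), and Mfge8 like Mx2, Acy3 and Zfp764 (0.98, 0.95 and 0.95). Over the 15 single-cell clusters, among 5962 genes, the C1q mean was most like Ccl24, Lgmn, Slc40a1, Sdc3 and Hmox1 (each 0.99). Of the other genes of the set, Timd4 (0.98), Axl (0.98), Mertk (0.96), Marco (0.91) and Cd5l (0.91) were close to it, Stab1 less so (0.72), and Mfge8 not (-0.20).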

How the data were processed

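Members and gene lists were chosen with earlier results of these data known. For EKLF+/+ and EKLF-/- cells, the authors deposited raw counts per gene, made with STAR (mm10) and htseq-count. For the EKLF/GFP libraries, the authors deposited Salmon estimated counts and TPM per transcript (Ensembl GRCm38). The estimated counts were summed per gene here and rounded. The authors' normalized counts, a signal table made with tximport and DESeq2, served alternatives only. Single-cell estimated counts per molecule were made by the authors with Alevin. A series table of log2 counts and fold changes was not used. In the file of EKLF+/+ replicate 1, 5 columns repeating other libraries were left unused.

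Each bulk comparison (3 against 3, without pairing) was fitted alone with edgeR 4.0.16: TMM, a minimum of 10 counts in 3 of 6 libraries, quasi-likelihood test, two-sided, Benjamini-Hochberg over all genes, threshold 0.05. The design was checked on simulated counts. Alternatives used DESeq2 1.42.0, limma 3.58.1, other filters, scalings and left-out libraries. Single cells were clustered with Seurat 5.3.0 (4000 variable genes without the 10 members, 30 components, resolution 0.8). A cluster took the name of the marker list with the highest mean ratio to other cells if 3 or more markers were at least 2-fold up, 1 or more was among its 10 leading genes and no other list had more there. Named genes were the 10 members, Klf1, Adgre1, the 2 largest rises and falls per pathway list, and the genes most correlated with a member (5 for C1q, 3 otherwise). R 4.3.3 and Python 3.11.15 were used.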

Additional observations from a re-analysis of the deposited data

How the results depend on the processing

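In EKLF-/- against EKLF+/+ cells, 2 genes were called lower and none higher under every alternative that kept all libraries, and 1 to 3 lower with 1 library left out. In EKLF/GFP+ against EKLF/GFP- cells, 2 were called lower, but 1 by limma on the authors' normalized counts with a pseudocount of 1 or 10. None was called higher, but 1 (Timd4) by DESeq2, 1 (Marco) without a filter on low counts, 1 (Marco) scaled to the macrophage markers, 3 (Timd4, Cd5l and Marco) with the replicate number as a block, and 0 to 4 with 1 library left out.

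Replicate numbers did not pair the libraries. Correlations of deviations of same-numbered libraries were -0.0054, 0.0034 and 0.056 for genotype and 0.032, -0.089 and 0.027 for the sorts, and 2 of 6 and 0 of 6 libraries correlated best with their own number. The replicate block changed no call by genotype.

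Directions turned only for values that were not called. By genotype these were, scaled to the macrophage markers, C1qa (0.024), Mfge8 (0.11) and Stab1 (0.043), and with 1 library left out C1qa (-0.68 to 0.10), C1qb (-0.20 to 0.81), C1qc (-0.35 to 0.36), Axl (-0.12 to 0.17), Mfge8 (-0.24 to 0.024) and Adgre1 (-0.050 to 0.21). In the sorts they were, scaled to the macrophage markers, C1qb (-0.23), C1qc (-0.00090), Mertk (-0.067), Axl (-0.27) and Adgre1 (-0.17), and with 1 library left out C1qb (-0.18 to 0.42), Mertk (-0.021 to 0.68), Axl (-0.38 to 0.48) and Adgre1 (-0.10 to 0.57). Transcript shares that turned with 1 library left out, in percentage points, were Axl-204 (-5.47 to 1.22), Axl-207 (-2.37 to 4.70), Mfge8-202 (-18.5 to 4.72), Mfge8-205 (-4.93 to 19.1), Stab1-201 (-1.44 to 1.47) and Stab1-202 (-4.71 to 0.668), and Stab1-201 stood at -1.25 by reads in place of TPM. The causes were not tested.

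In single cells 8 genes were highest in the macrophage-like class under every resolution, cell filter and thinning tried, and without the 5% of cells with the highest scrublet scores, an alternative chosen after seeing the data. Depth limits Timd4 (from 16 reads per library) and Mertk (from 57) by genotype and Mfge8 (from 31) in the sorts.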
